A study of Mus musculus with 4 samples.

Results

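The genes described here code for proteins of the small nuclear ribonucleoproteins (snRNPs), the RNA and protein particles that build the spliceosome, and for their Lsm and Prpf relatives. They were taken by name, as every mouse gene in the expression table whose symbol begins with Snrp, Snrnp, Lsm and a digit or Prpf and a digit. The choice was made with earlier results of these data known. This gave 43 genes of the 22667 listed, and all 43 were among the 12497 genes that reached 75 reads summed over the 4 libraries. Lsm3 and Lsm8, which complete the Lsm rings, have no row under those symbols and were not analysed here.

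The data are polyA-enriched RNA-seq of N2a cells, a mouse neuroblastoma cell line used as a model of neural transcription and splicing. Cells received siControl or siArglu1, an siRNA against Arglu1, for 48 h, and vehicle (EtOH) or dexamethasone (Dex, a glucocorticoid drug) at 100 nM for 4 h. The siControl libraries are siControl Veh and siControl Dex, followed by their knockdown counterparts siArglu1 Veh and siArglu1 Dex. Values of 4 libraries are printed in this order where no order is named, and values of 2 pairs as vehicle, then Dex. Each group is 1 library made from the pooled mRNA of 3 cultures, so the spread between cultures cannot be seen and no p-value was given for any pair of libraries.

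A snRNP is assembled around a small nuclear RNA. In U1, U2, U4 and U5 the RNA carries a ring of Sm proteins, in U6 it carries a ring of the related Lsm proteins, and each particle adds proteins of its own. U1 recognizes the 5′ splice site and U2 the branch site, the U4/U6.U5 tri-snRNP then joins, and rearrangements lead to catalysis. The Prpf proteins act at several of these stages. A cytoplasmic Lsm ring, in which Lsm1 takes the place of Lsm8, acts in mRNA decapping, and the U7 snRNP, with Lsm10 and Lsm11 in its ring, acts in the processing of histone mRNA ends. The U11 and U12 snRNPs serve the minor class of introns.

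The libraries held 66074574 to 86541444 reads on genes, and the 43 genes took 0.534% (Veh) and 0.537% (Dex) of them with siControl and 0.494% and 0.479% with siArglu1. The cells carried transcripts of the neuronal genes Tubb3, Stmn2, Gap43 and Ina, while the neurofilament genes Nefl and Nefm were at 0 to 9 reads. The 7 neuronal markers that were looked up summed to 1037 to 1481 cRPKM per library, and 6 markers of glia, blood, liver, epithelium and endothelium summed to 0.89 to 1.58. Arglu1 itself had 10165 (Veh) and 11825 (Dex) reads with siControl against 2637 and 3254 with siArglu1. Both siArglu1 libraries were below both siControl libraries, at 26.4% and 22.5% of the control level, which fits the siRNA labels.

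The level of each gene was read as cRPKM, the authors' reads per length of mappable sequence and per library size, which allows levels to be set side by side between genes. The median of the 43 genes was 54.8 cRPKM in siControl Veh, against 11.02 over all 12497 genes. The Sm ring genes were the most abundant group with a median of 260 cRPKM, from 40.4 for Snrpn to 400 for Snrpg. Lsm4, of the U6 ring, was at 246 cRPKM and Snrnp70, the RNA-binding protein of U1, at 234. The genes of particles that are rare in the cell were at the low end. Lsm11 and Lsm10 of U7 were at 6.85 and 13 cRPKM, and Snrnp35 and Snrnp48 of U11/U12 at 8.63 and 10.2, while Snrnp25 of U11/U12 was at 54.1. Prpf4 of U4/U6 was at 7.94 cRPKM and Prpf40b at 9.78. The level of Lsm7 rests on a mappable length of only 29 nt and 260 to 453 reads, and its cRPKM is the least certain of the set.

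**Figure D1:**
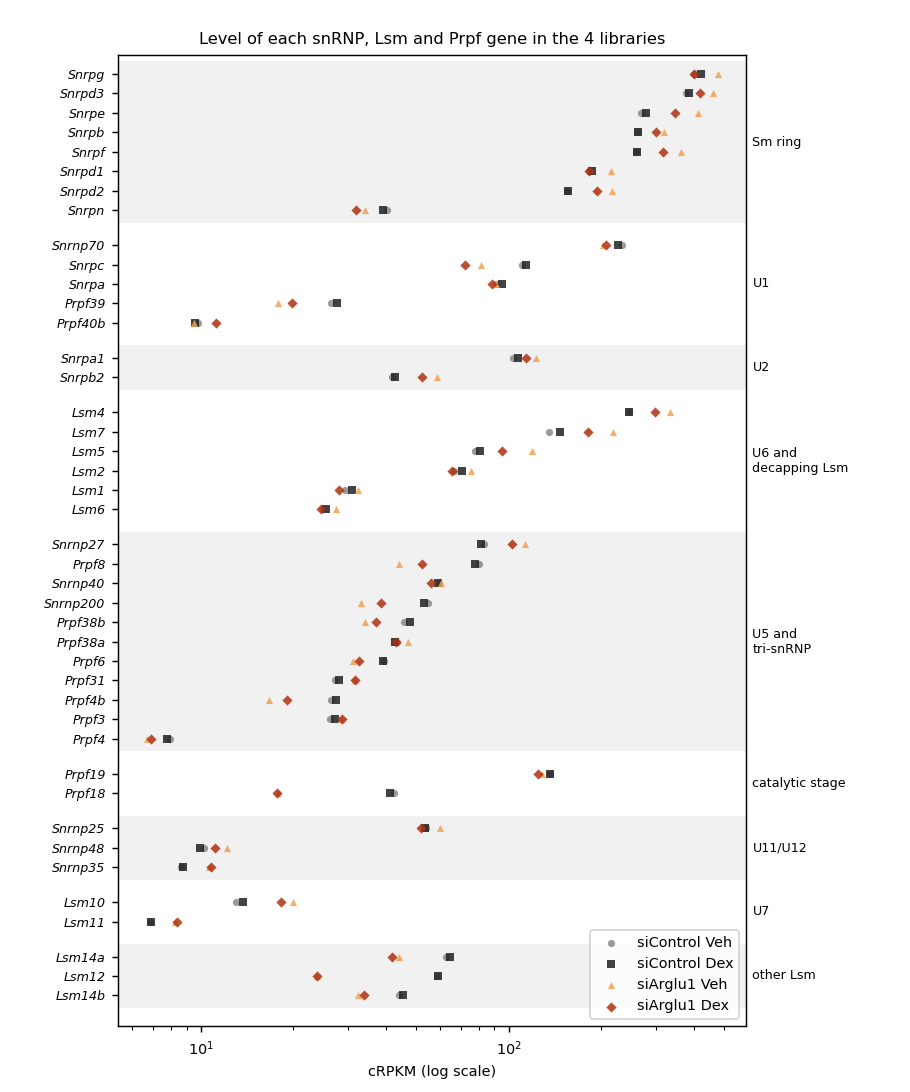
Level of 42 of the genes in cRPKM (log axis), 1 row per gene, grouped by role and ordered by siControl Veh. The 4 symbols are the 4 libraries, with no replicates. Snrpg is the highest at 400 cRPKM and Lsm11 the lowest at 6.85, and Lsm12 and Prpf18 show the widest gap between siControl and siArglu1 libraries.

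Which of these genes changed with loss of Arglu1 was examined in 2 pairs of libraries that have none in common, siArglu1 Veh over siControl Veh (the vehicle pair) and siArglu1 Dex over siControl Dex (the Dex pair). Ratios were taken on reads scaled by library size, as differences of log2 CPM, and a gene was counted as changed past 0.81 in either direction, the size used by the study. No member was past 0.81 upward in either pair. Downward, 3 of 43 (Lsm12, Prpf18 and Prpf8) were past it with vehicle and 2 of 43 (Lsm12 and Prpf18) with Dex. Over all 12497 genes 7.0% were past 0.81 upward and 8.77% downward in vehicle, and 6.19% and 5.93% in Dex. Past the threshold in both pairs were 4.83% of all genes upward and 5.07% downward, against 0 and 2 of the 43. The count of lower genes is thus near the share of all genes. Within 0.5 of 0 lay 30 of 43 members (69.8%) in vehicle and 37 (86%) in Dex, beside 64.7% and 71.1% of all genes, and the 13 members outside it in vehicle were 7 above and 6 below 0.

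Lsm12, an Lsm-domain protein outside the snRNP rings that is known to associate with ataxin-2, had 8569 (Veh) and 9243 (Dex) reads with siControl against 3514 and 4555 with siArglu1. Both siArglu1 libraries were below both siControl libraries. The log2 ratio was −1.26 in vehicle, with a 95% counting interval of −1.32 to −1.21, and −1.31 in Dex, from −1.36 to −1.26, so that 41.6% and 40.4% of the control level were left. In cRPKM it was at 58.76 and 58.8 with siControl and at 23.91 and 23.85 with siArglu1. In bulk RNA, fewer cells that express a gene and less RNA per cell cannot be told apart. The gene lies on chr11:102162497-102185296 (GRCm38, minus strand).

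Prpf18, a factor of the second catalytic step that acts in the choice of the 3′ splice site, had 9539 and 10038 reads in siControl Veh and Dex and 4059 and 5243 in siArglu1 Veh and Dex. The siArglu1 libraries were again both below the siControl libraries. Its log2 ratios were −1.21 (−1.26 to −1.16) and −1.23 (−1.27 to −1.18), with 43.2% and 42.8% of the control level left. It lies on chr2:4622058-4652113 (GRCm38, minus strand). Prpf19, the ubiquitin ligase at the centre of the Prp19 complex and the other gene placed in the catalytic stage, had 19099 and 20722 reads with siControl (Veh, then Dex) and 18187 and 22985 with siArglu1. Its log2 ratios were −0.05 and −0.14, and −0.15 and −0.21 with the trend removed that is described below for mappable length.

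Prpf8, the largest spliceosomal protein and the scaffold of the catalytic core, had 39271 (Veh) and 41073 (Dex) reads with siControl against 21655 and 33385 with siArglu1. It was lower in both siArglu1 libraries, by unequal amounts. The log2 ratio was −0.84 in vehicle (−0.86 to −0.81) and −0.59 in Dex (−0.61 to −0.57), which left 56.0% and 66.5% of the control level. The end of the vehicle interval that is nearer to 0 lies at the threshold, and the Dex value is short of it. The gene lies on chr11:75486816-75509449 (GRCm38, plus strand).

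**Figure D2:**
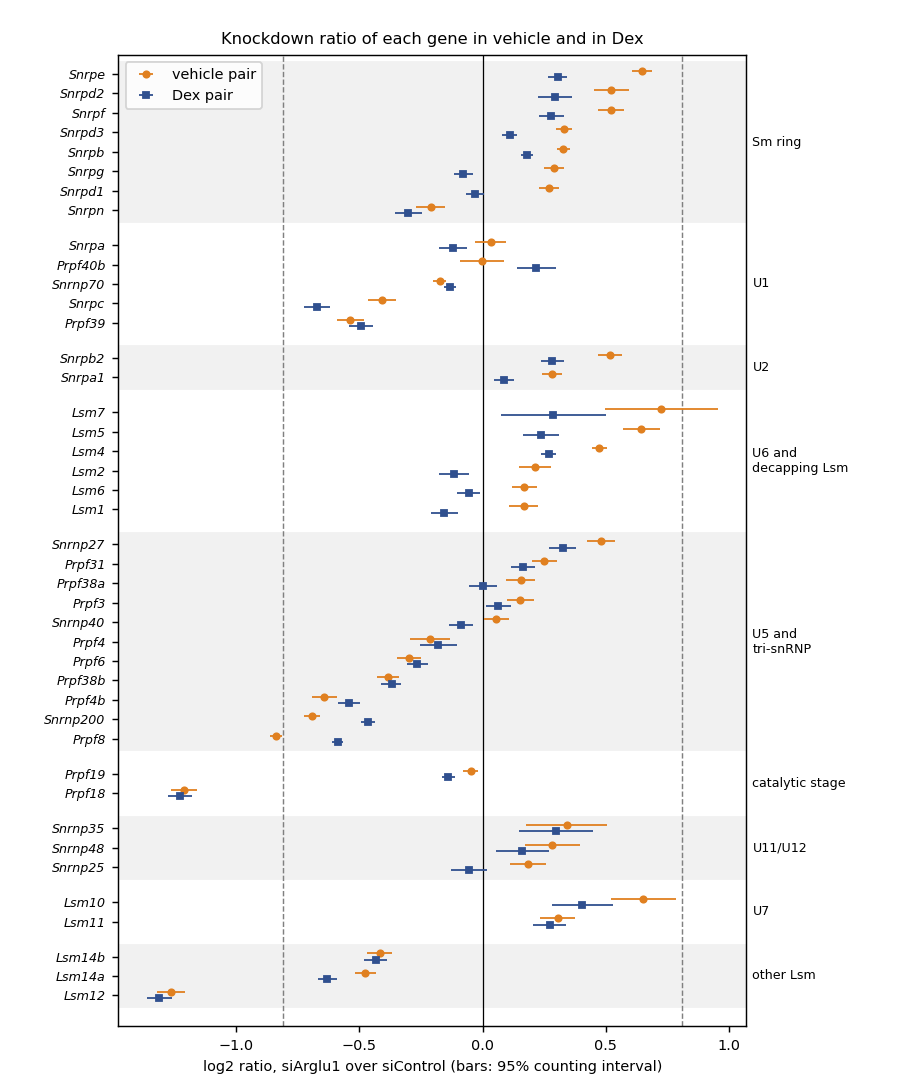
Log2 ratio of siArglu1 over siControl for each of 42 genes in the vehicle pair (circles) and the Dex pair (squares), grouped by role, with 95% intervals that cover counting error only. Dashed lines mark 0.81 in either direction. Lsm12 and Prpf18 lie past it in both pairs and Prpf8 in vehicle.

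The intervals cover the counting of reads and not the spread between cultures. They left out 0 for 41 of 43 genes in vehicle and 40 of 43 in Dex, since read counts were high (1440 to 135384 over the 4 libraries), and they were therefore not used to call a change. In the additive edgeR quasi-likelihood fit, which takes the vehicle and Dex libraries as repeats of the knockdown and has 1 residual degree of freedom, 15 of the 43 were higher and 14 lower at an adjusted p of 0.05, beside 30.8% and 30.9% of all genes. DESeq2 with the same terms called 11 higher and 13 lower. Its share over all genes was not counted, so these 2 numbers have no background.

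The ratios of the 43 genes followed their mappable length, which is not the length of the transcript. Lsm7, for one, has 29 nt of mappable length and 1601 annotated exonic bases. The Spearman correlation of the log2 ratio with the mappable length was −0.71 for the vehicle pair and −0.55 for the Dex pair across the 43 genes, and −0.40 and −0.23 across 12484 genes with a length. These are correlations across genes of the same libraries, and genes are not independent replicates. Of 16 members under 1000 nt, 15 were above 0 in vehicle and 10 in Dex, and of 15 members of 2500 nt or more, 4 were above 0 in each pair. Of all 12497 genes, 6286 were above 0 in vehicle and 6288 in Dex. This was not counted by length over all genes, so the member counts by length have no background. The median log2 ratio in vehicle was 0.41 for the short members and −0.30 for the long ones, and 0.33 and −0.17 for all genes of the same lengths. Most Sm genes have a short mappable length and most Prpf genes a long one, so that role and length overlap in this set. The part of length in the values of each role was not tested. Each group is therefore given also with the trend over all genes removed.

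**Figure D3:**
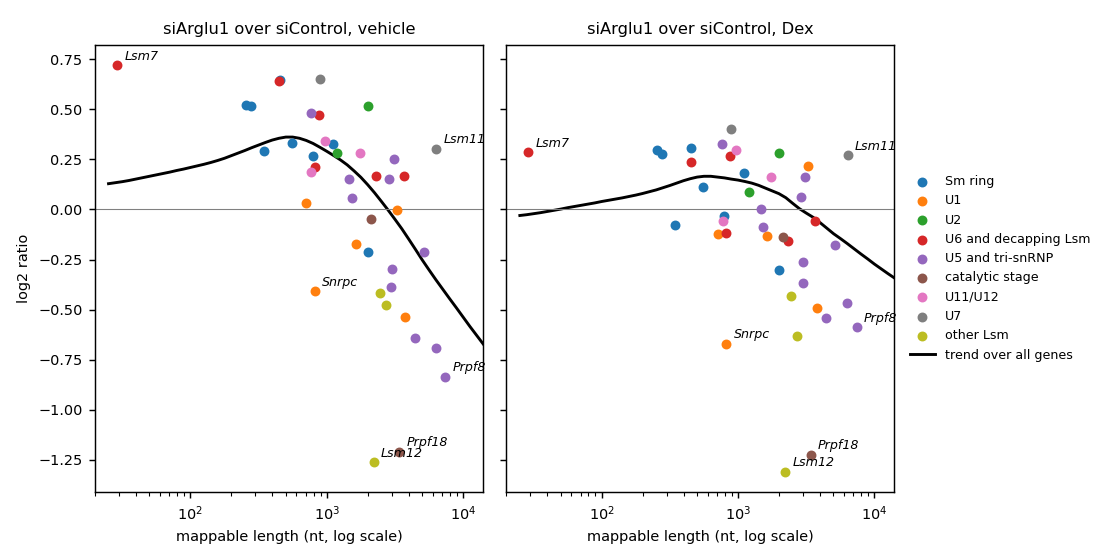
Log2 ratio of siArglu1 over siControl against mappable length (log axis) for 42 genes, coloured by role, in the vehicle pair (left) and the Dex pair (right). The black line is the lowess trend over 12484 genes. Lsm12, Prpf18 and Snrpc lie far below the line in both panels and Prpf8 lies closer to it, at −0.42 and −0.38 once the trend is removed.

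With the trend removed, Lsm12 was at −1.35 in vehicle and −1.37 in Dex and Prpf18 at −1.13 and −1.19, both still past 0.81. Prpf8, with the longest mappable length of the set at 7393 nt, was at −0.42 and −0.38 and no longer past it. Snrpc came past it in the Dex pair, at −0.83. This gave 2 of 43 lower in vehicle and 3 of 43 in Dex, with 7.09% and 5.59% of all genes lower, and none of the 43 higher, with 6.0% and 5.99% of all genes higher.

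The Sm ring genes form the core that U1, U2, U4 and U5 share. In vehicle 7 of 8 were above 0, with a median log2 ratio of 0.33, and none was past 0.81. Snrpe had 0.65, Snrpd2 0.52, Snrpf 0.52, Snrpd3 0.33, Snrpb 0.33, Snrpg 0.29 and Snrpd1 0.27, and Snrpn had −0.21. The same genes were lower in the Dex pair, at 0.31, 0.29, 0.28, 0.11, 0.18, −0.08, −0.03 and −0.30, and all 8 had a smaller ratio in Dex than in vehicle. With the length trend removed the median was 0.01 in vehicle and −0.01 in Dex, with 4 of 8 above 0 in each. Snrpg, the most abundant, had 9087 (Veh) and 10297 (Dex) reads with siControl against 10937 and 11917 with siArglu1.

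Snrpn codes for SmN, a neural relative of the SmB protein made from Snrpb, and was the Sm gene below 0 in both pairs. Snrpb had 19148 (Veh) and 20879 (Dex) reads with siControl against 23654 and 28887 with siArglu1, and Snrpn had 5364, 5581, 4563 and 5535. As a share of the summed cRPKM of both genes, Snrpn was 13.4% and 12.9% in the siControl libraries and 9.65% and 9.59% in the siArglu1 libraries. The siArglu1 shares were both below the siControl shares. The coding regions of Snrpb and Snrpn are closely related, and Snrpn shares its transcript with Snurf, so that the authors' counting could have split reads between them and these values are uncertain. In GENCODE M21, 27.3% of the exonic bases of Snrpn are also exons of another gene on the same strand.

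The U1 genes were mostly below 0, at 5 of 6 in each pair (6 of 6 in vehicle when scaled to total reads or taken from cRPKM), with medians of −0.23 and −0.20 on the log2 scale. With the length trend removed the medians were −0.34 and −0.26, with 2 of 6 above 0 in vehicle and 1 of 6 in Dex. Prpf39, which associates with U1 and affects alternative splicing, was the lowest in vehicle with −0.54 and had −0.49 in Dex. Snrpc, the U1-C protein that steadies the pairing of U1 with the 5′ splice site, had −0.41 and −0.67. Its mappable length is short, at 821 nt, and with the trend removed Snrpc was at −0.73 and −0.83. Snrnp70 had −0.17 and −0.13. Snrpa, the U1-A protein, had 0.03 and −0.12, and Prpf40b, which associates with U1, had 0.00 and 0.22.

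Snrnp70 was the most abundant U1 gene, with 25156 (Veh) and 26176 (Dex) reads with siControl against 21975 and 29162 with siArglu1. Prpf40b was the least abundant, with 2106, 2227, 2071 and 3162 reads in the same order.

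The U2 proteins Snrpa1 (U2-A′) and Snrpb2 (U2-B″) were above 0 in both pairs. Snrpa1 had 8183 and 9101 reads with siControl (Veh, then Dex) and 9791 and 11806 with siArglu1 and log2 ratios of 0.28 and 0.09, and with the trend removed 0.02 and −0.05, so that its Dex ratio changed sign. Snrpb2 had 5567, 6150, 7841 and 9142 reads and ratios of 0.52 and 0.28, and with the trend removed 0.40 and 0.20. Snrpa and Snrpb2 are relatives that bind the RNA of U1 and U2. Snrpa had 4280, 4817, 4311 and 5412 reads, and the share of Snrpb2 in the summed cRPKM of the pair was 31.5% and 31.1% in siControl and 39.1% and 37.4% in siArglu1 libraries.

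The Lsm genes of the U6 and decapping rings were all above 0 in vehicle, 6 of 6, with a median log2 ratio of 0.34, and 3 of 6 were above 0 in Dex, with a median of 0.09. Lsm7 had 0.72 and 0.29, Lsm5 0.64 and 0.23, and Lsm4 0.47 and 0.27. Lsm2 had 0.21 in vehicle and −0.12 in Dex, Lsm6 0.17 and −0.06, and Lsm1, the subunit of the decapping ring alone, 0.17 and −0.16. All 6 had the smaller ratio in Dex. With the trend removed the medians were 0.22 and 0.04. Lsm4 was the most abundant with 14259 (Veh) and 15383 (Dex) reads with siControl against 19507 and 22623 with siArglu1, and Lsm6 the least, with 6088, 6704, 6738 and 7874.

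The U7 ring genes Lsm10 and Lsm11 were above 0 in both pairs. Lsm10 had 768 and 876 reads with siControl (Veh, then Dex) and 1188 and 1416 with siArglu1, with log2 ratios of 0.65 and 0.40, and with the trend removed 0.34 and 0.25. Lsm11 had 2871, 3128, 3490 and 4615 reads, with ratios of 0.30 and 0.27. Lsm11 has a mappable length of 6344 nt, where genes in general were lower, and was at 0.66 and 0.44 with the trend removed, the highest of the 43 in both pairs on that scale. Neither gene was past 0.81.

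The tri-snRNP genes were spread over both directions, with 5 of 11 above 0 in vehicle and 4 of 11 in Dex (3 of 11 with DESeq2 size factors). Below 0 with Prpf8 were Snrnp200, the helicase that unwinds U4 from U6, with −0.69 and −0.47, and Prpf4b, a kinase of tri-snRNP proteins, with −0.64 and −0.54. Prpf38b had −0.38 and −0.37, Prpf6, which bridges U5 to U4/U6, −0.30 and −0.26, and Prpf4, of U4/U6, −0.21 and −0.18. Snrnp40, the WD-repeat protein of U5, had 0.06 and −0.09, and Prpf38a, which acts when the spliceosome is activated, 0.15 and 0.00. The U4/U6 proteins Prpf3 and Prpf31 had 0.15 and 0.06 and 0.25 and 0.16, and Snrnp27, of the tri-snRNP, was the highest with 0.48 and 0.32.

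Snrnp27 was also the most abundant of them per length, with 4208 (Veh) and 4453 (Dex) reads with siControl against 5780 and 6817 with siArglu1, and Prpf4 the least, with 2715, 2862, 2306 and 3088. The relatives Prpf38a and Prpf38b lay on different sides of 0 in vehicle, but on the same side, at −0.06 and −0.36, with the trend removed. Prpf38a had 4199, 4479, 4599 and 5472 reads and Prpf38b 9008, 10126, 6794 and 9577, so that Prpf38b made up 51.4% and 52.7% of their summed cRPKM in siControl and 42.1% and 46.3% in siArglu1 libraries. With the trend removed the median of the tri-snRNP genes was −0.15 in vehicle and −0.20 in Dex, with 4 of 11 and 3 of 11 above 0. Snrnp200 was then at −0.34 and −0.30. Prpf4 was at 0.05 and −0.05, so that its vehicle ratio changed sign.

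The U11/U12 proteins had small ratios. Snrnp35 had 0.34 and 0.30, Snrnp48 0.28 and 0.16, and Snrnp25 0.18 and −0.06. Snrnp35 was the least abundant, with 553 (Veh) and 606 (Dex) reads with siControl against 690 and 909 with siArglu1, and Snrnp25 the most, with 2761, 2953, 3090 and 3473. With the trend removed their medians were 0.05 and 0.06.

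Beside Lsm12, the Lsm14 proteins of P-bodies, which repress mRNA and act with the decapping machinery, were below 0 in both pairs. Lsm14a had 11270 and 12488 reads with siControl (Veh, then Dex) and 7984 and 9855 with siArglu1, with log2 ratios of −0.47 and −0.63. Lsm14b had 7197, 7983, 5308 and 7221 reads and ratios of −0.42 and −0.43. The share of Lsm14b in the cRPKM of the pair was 41.4% and 41.4% in siControl and 42.4% and 44.8% in siArglu1 libraries. These Lsm genes have mappable lengths of 2207 to 2726 nt, where the trend over all genes is close to 0. Their medians with the trend removed were −0.49 and −0.64.

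The vehicle and Dex pairs gave much the same order of genes. Across the 43 genes, the Pearson correlation of the 2 sets of ratios was 0.95 and the Spearman correlation 0.94, and 34 had the same sign. The Dex ratio was the smaller in 33 of 43 genes. Neither the sign count nor this count was made over all genes. Over all genes, the median ratio was 0.33 in vehicle and 0.14 in Dex under 1000 nt, and −0.17 and −0.08 from 2500 nt. The length trends of the pairs differ, and with them removed the correlation was 0.97 and 38 of the 43 members had the same sign. Both pairs used the same siRNAs, and genes of a library are not independent.

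Reads of overlapping genes could add to some of these values. The counting is not stated to use strand, and 9 of the 43 genes share exonic bases with another gene of GENCODE M21 on either strand. For Snrpf, 85.4% of exonic bases are covered by exons on the opposite strand, for Prpf31 18.1% and for Snrpa 11%, so that reads of these genes and of their antisense neighbours cannot be told apart. Lsm12, Prpf18 and Prpf8 had none.

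Differences between Dex and Veh were small for these genes. No member was past 1 on the log2 scale in siControl (Dex over Veh) or in siArglu1 (Dex over Veh), and all 43 lay within 0.5 of 0 in both. Of all genes, 0.320% were past 1 upward and 0.144% downward in siControl, and 0.328% and 0.0640% in siArglu1, so that 0 of 43 is near the share of all genes. The additive edgeR fit called 1.04% of all genes for Dex at an adjusted p of 0.05 and 0 of the 43, with 0 at an unadjusted p under 0.05, and DESeq2 called 0. In siControl the ratios ran from −0.04 (Snrpn) to 0.13 (Lsm7), with an SD over the 43 genes of 0.04. In siArglu1 they ran from −0.35 (Lsm5) to 0.21 (Prpf8), with an SD of 0.14.

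The siArglu1 ratios of Dex over Veh followed length. The Spearman correlation with mappable length was 0.81 across the 43 genes and 0.54 across all genes, against −0.33 and −0.16 in siControl. All 8 Sm ring genes and all 6 Lsm genes of the U6 and decapping rings were below 0 in siArglu1, with medians of −0.21 and −0.24, while Prpf8 and Snrnp200 had 0.21 and 0.19. These values share the siArglu1 Veh library with the vehicle pair of the knockdown, as the siControl ratios share siControl Veh. That library stood farthest from the mean of the 4 in its length trend, at a correlation of −0.44 across all genes. With the trend removed, the siArglu1 median of the Sm ring genes was −0.06, with 2 of 8 above 0. Prpf8 and Snrnp200 were then at 0.04 and 0.05. The Lsm genes of the U6 and decapping rings had a median of −0.17, with 0 of 6 above 0. On this scale the SD of the 43 genes was 0.09 in siArglu1 and 0.04 in siControl.

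Splicing of the same transcripts was read as PSI (percent spliced in), the share of a gene's transcripts that hold an exon or end it at a given site. Of 248 events listed in 40 of the genes, 202 in 38 genes had a PSI in all 4 libraries with at least LOW coverage in 3 of them, and were compared. They were 91 cassette exons, 61 choices of a 3′ splice site (Alt3) and 50 of a 5′ splice site (Alt5). Of the 202 events, 176 were under 5 PSI in each of the 4 pairs, and the share over all events was not computed. A difference of 15 PSI, the size used by the study, was met with knockdown by 2 of 202 events in vehicle and by 3 in Dex, beside 1.96% and 1.52% of 57183 events in all genes. In both pairs in 1 direction it was met by 2 of 202, beside 0.540% of all events. With OK coverage or better in each library it was the same 2, of 189, beside 0.467%. For Dex, 1 of 202 events met it in siControl and 0 in siArglu1, beside 0.719% and 0.948% of all events.

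Both events seen in the 2 knockdown pairs are cassette exons that hold a stop codon in the frame of annotated coding transcripts, and their sequences are shown for that reason. The first is a 100-nt exon of Prpf39, on chr12:66156421-66156520 in the mm9 coordinates of the files. Its PSI was 24.5 (Veh) and 24.9 (Dex) with siControl against 40.7 and 42.5 with siArglu1, each with SOK, the highest coverage score. The siArglu1 libraries were both above the siControl libraries, by 16.2 PSI in vehicle and 17.6 in Dex. The mm9 genome was not used here. In GENCODE M21 the exon with the same length and the same flanking introns lies on chr12:65055434-65055533 (GRCm38, plus strand), in 3 transcripts annotated as nonsense-mediated decay or retained intron, and 2 transcripts skip it. The exon begins with a whole codon in the frame of 1 of 2 coding transcripts, while the coding region of the other ends upstream of it, and its length is not a multiple of 3. Its bases are given up to the in-frame stop codon at bases 85 to 87 in capitals, and then 30 bases of each neighbouring exon as they are joined when it is skipped, with those of the upstream exon in capitals.
Prpf39 exon: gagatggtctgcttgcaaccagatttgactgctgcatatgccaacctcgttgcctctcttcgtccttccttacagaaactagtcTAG
Prpf39 skipping junction: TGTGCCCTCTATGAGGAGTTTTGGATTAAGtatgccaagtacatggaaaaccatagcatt

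In the same libraries the reads of Prpf39 over all its isoforms were 6574 (Veh) and 7419 (Dex) with siControl against 4463 and 6433 with siArglu1, and the log2 ratios were −0.54 and −0.49. The exon with the stop codon was thus more included in the libraries in which the gene's level was lower. For Lsm14a, described next, a stop-codon exon was less included where the gene's level was lower. Whether level and inclusion are linked was not tested. Exons of Fkbp3 on the opposite strand cover part of Prpf39, at 5.0% of its exonic bases.

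The second event is a 57-nt exon of Lsm14a, on chr7:35132945-35133001 in mm9. Its PSI was 79.4 (Veh) and 75.2 (Dex) with siControl against 53.5 and 55.9 with siArglu1, again with the highest coverage score in each library. It was less included in both siArglu1 libraries, with differences of −25.8 PSI in vehicle and −19.3 in Dex. In GENCODE M21 the matching exon lies on chr7:34347926-34347982 (GRCm38, minus strand), in 2 transcripts of which 1 is annotated as protein coding and 1 as nonsense-mediated decay, and 2 transcripts skip it. The frame was read on from the upstream exon, which lies in the coding region of 2 of 4 coding transcripts, whether or not they hold the 57-nt exon. In that frame the exon begins with a whole codon and has a stop codon at base 22, shown in capitals. The coding regions of the other 2 end upstream of it. The log2 ratios of Lsm14a itself were −0.47 and −0.63.
Lsm14a exon: aaaaccacggcttttggacccTAA

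Another exon met 15 PSI in 1 pair with good coverage. The 73-nt exon of Prpf4b, on chr13:34995399-34995471 in mm9, had a PSI of 24.6 (Veh) and 13.6 (Dex) with siControl against 20.9 and 31.8 with siArglu1. It differed by 18.2 PSI in the Dex pair and by −3.68 in the vehicle pair, so that the pairs went in opposite directions. The Dex differences were −10.96 PSI in siControl and 10.97 in siArglu1. Its match in GENCODE M21 (chr13:34903530-34903602, GRCm38, plus strand) lies downstream of the stop codon of the annotated coding transcript.

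Other exons, outside the rule and chosen after their values were seen, belong to Lsm5 and Prpf4b. A 28-nt exon of Lsm5 (chr6:56653000-56653027, mm9) had a PSI of 39.7 (Veh) and 41.0 (Dex) with siControl against 26.5 and 26.9 with siArglu1. The siArglu1 libraries were both lower, with differences of −13.2 and −14.1 PSI and LOW coverage in both siControl libraries. A 46-nt exon of Prpf4b (chr13:34994499-34994544, mm9) gave the 1 Dex event in siControl, at 72.7 PSI with vehicle and 88.1 with Dex, a difference of 15.3 with LOW coverage in siControl Veh. It was at 81.3 in siArglu1 Veh and 78.9 in siArglu1 Dex. Lsm12, Snrpb2, Snrpc, Snrpe and Snrpg had no event that could be compared, and 0 of 4 events of Prpf18 and 0 of 11 of Prpf8 met 15 PSI.

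**Figure D4:**
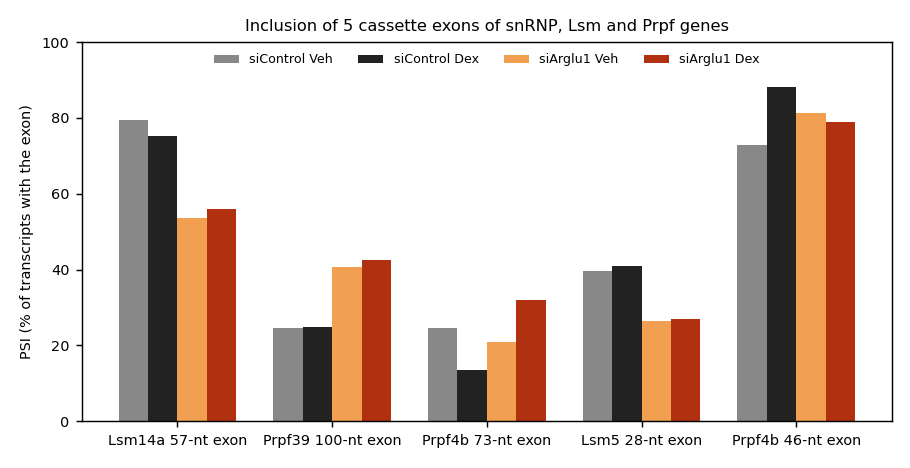
PSI (percent of transcripts with the exon, axis from 0 to 100) of 5 cassette exons in the 4 libraries, 1 bar per library with no replicates. The siArglu1 bars of the Prpf39 exon are above and those of the Lsm14a and Lsm5 exons below both siControl bars, and the Prpf4b exons show no such split.

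The other proteins of the same particles were read from a list of 57 partner genes, all of which were found and had enough reads. It holds further U5 and tri-snRNP proteins, the Prp19 complex, U11/U12 proteins, the SMN and methylosome proteins that assemble snRNPs, the decapping factors that act with the Lsm1 ring, and spliceosomal helicases. None of the 57 was past 0.81 in both knockdown pairs, against 4.83% of all genes upward and 5.07% downward. In vehicle 1 was past it upward and 1 downward, and in Dex none, and both were looked up after these counts were seen. Gemin7, of the SMN complex, had 686 and 753 reads with siControl and 1322 and 1449 with siArglu1, with log2 ratios of 0.97 and 0.65. With the length trend removed they were 0.67 and 0.51, so that Gemin7 was no longer past 0.81. Xrn1, the exonuclease that degrades decapped mRNA, had 1451 and 1393 reads with siControl and 592 and 1119 with siArglu1, with ratios of −1.27 and −0.60. With the trend removed Xrn1 was at −0.98 and −0.465, still past 0.81 in vehicle alone. The median log2 ratios (vehicle, then Dex) were 0.23 and 0.09 for the assembly genes, 0.33 and 0.24 for the U11/U12 genes, 0.12 and 0.00 for the U5 and tri-snRNP partners, 0.09 and −0.12 for the Prp19 complex, −0.21 and −0.11 for the helicases, and −0.09 and 0.06 for the decapping genes. These medians were not taken with the length trend removed. None of the 57 genes was past 1 with Dex in either siRNA group.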

How the data were processed

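Libraries were TruSeq V2 and were sequenced on a HiSeq2500 by the authors, whose processing notes name Bowtie (no version) and mm9; vast-tools gave the splicing values. The authors deposited a read count per gene and library, not normalized. In the same table, the deposited RPKM are corrected for mappability (cRPKM); mappable length was computed from both. The authors deposited PSI as a percent from 0 to 100 with coverage scores in words (N, VLOW, LOW, OK, SOK; LOW was 20 to 39, OK 40 to 99 and SOK 100 or more reads in the splice-site tables, while cassette exons have no read counts to check this). The deposited columns of ratios of Dex over Veh were not used.

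Reads were scaled with TMM factors (edgeR 4.0.16, R 4.3.3), CPM were put on the log2 scale after a prior count of 1 was added, and intervals are exact conditional binomial at 95%. Genes needed 75 reads over 4 libraries. The length trend is a lowess of log2 ratio on log10 mappable length (span 0.3, 3 iterations). Additive fits used edgeR and DESeq2 1.42.0 over all genes, with Benjamini-Hochberg adjustment. Alternative sites of the same Alt3 or Alt5 event counted once. Scripts were tested on simulated data. Exons were matched to GENCODE M21 by exon and intron length, with no conversion of coordinates, and sequences were read from its transcripts.

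The members and lists were chosen with earlier results of these data known. Every member is named, except 1 that is not reported here and stays in the counts and medians, with reads for those past a threshold, for the most and least abundant of each role by cRPKM and for paralogs; partners are named where past 0.81 in both pairs (none was; Gemin7 and Xrn1 were named after their values were seen), and events where past 15 PSI in both pairs in 1 direction, or in either with OK coverage throughout.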

Additional observations from a re-analysis of the deposited data

Results flagged for a closer look

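For 5 genes the knockdown ratio was above 0 in vehicle and below 0 in Dex with both counting intervals clear of 0. The difference between the pairs was not tested, since each group is 1 library. The intervals served here only to list genes and not to call a change. The same switch of sign was not counted over all genes. Snrpg had 0.29 in vehicle and −0.08 in Dex, a difference of 0.37 on the log2 scale. Lsm2 differed by 0.33 (0.21 and −0.12), Lsm1 by 0.32 (0.17 and −0.16), Lsm6 by 0.23 (0.17 and −0.06) and Snrnp40 by 0.14 (0.06 and −0.09). The vehicle interval of Snrnp40 began close to 0, at 0.005 to 0.108. Its vehicle ratio was 0.023 when scaled to total reads or taken from cRPKM, so that its place in this list depends on the scaling. The Dex ratio was the smaller in 33 of the 43 genes, a count that was not made over all genes. With the length trend removed Lsm2 was below 0 in both pairs, at −0.11 and −0.27, as were Snrpg, at −0.04 and −0.21, and Snrnp40, at −0.15 and −0.20, while Lsm1 kept opposite signs at 0.10 and −0.21 and Lsm6 was at 0.28 and −0.01.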

How the results depend on the processing

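With 1 library per group no replicate could be left out, and each gene had 1440 reads or more over the 4 libraries, so that its spread between cultures, not its counting error, is what these data cannot show. No paired analysis was possible because each group is 1 library and the groups share only the replicate number 1. Over the counts of genes and events, 55 alternative values stayed within 1.5 times the reported count and 23 did not. Counts of 0 that stayed at 0, such as those of genes for Dex, are among the 55 and say little about stability. DESeq2 size factors, total reads, cRPKM, no read minimum, 400 reads and a prior count of 5 moved no count of genes. A threshold of 0.5 gave 13 genes in vehicle (7 higher and 6 lower, against 0 and 3), 6 in Dex and 4 in both pairs (all lower), and 3 partners in both pairs (1 higher and 2 lower), and 1.5 gave 0 in each. The additive fits of the knockdown called 29 genes with edgeR (15 higher and 14 lower) and 24 with DESeq2 (11 and 13). This is a rule of p and not of size, and the rule of size gave none higher. The DESeq2 share over all genes was not counted. For splicing, no coverage minimum gave 12 events in vehicle, 16 in Dex, 6 in both pairs, 8 for Dex in siControl and 13 in siArglu1. A threshold of 10 PSI gave 7, 6, 3, 4 and 4 in that order, and 25 PSI gave 1, 0, 0, 0 and 0. Shares over all events were not computed at these settings, nor was the share of all genes past 0.5 in both pairs. These counts therefore have no background. With OK coverage in all libraries the Dex event in siControl was lost, at 0. Of 86 ratios of single genes, removal of the length trend moved 65 beyond their counting interval, total reads and cRPKM 7 each, and DESeq2 size factors and a prior count of 5 none. The median of all genes stayed between −0.03 and 0.03 in each pair and scaling.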
